A study of Homo sapiens with 2 samples.

Results

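Chromosome 9 was examined for peaks of brachyury (TBXT), a T-box transcription factor that acts in the formation of mesoderm and notochord, in MDA-MB-231, an established line of human breast cancer, in its wild-type state. The members were all peaks that the deposited list places on chromosome 9, which were 387 of 10342 peaks. The list was called from 2 libraries, one titled MDA-MB-231 and one titled MDA-MB-231, input, for which the label gives no antibody. The title of the first library names no antibody either, and it was read as the anti-brachyury immunoprecipitation from the methods of the study and the name of the list. Neither library was treated or replicated, so no error between replicates can be given, and the read depth of both is unknown. Positions are on hg19 (GRCh37), the build named in the submitters' processing notes. On GRCh38, 8 of these peaks would fall beyond every gene of chromosome 9 in the RefSeq table, so the positions were not read on that build.

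The short arm of chromosome 9 carries CDKN2A, a tumour suppressor locus that encodes p16INK4a and p14ARF from separate promoters. The first protein inhibits the cyclin-dependent kinases CDK4 and CDK6 and so holds cells before S phase, and the second stabilises p53 by binding MDM2. The locus is often lost in human tumours, and MDA-MB-231 is known as a line with a homozygous deletion there. By order in the RefSeq table, its nearest protein-coding neighbours were MTAP, IFNE, IFNA1, IFNA8 and IFNA2 on the telomeric side and CDKN2B, DMRTA1, ELAVL2, IZUMO3 and TUSC1 on the centromeric side. MTAP encodes an enzyme of methionine salvage, the IFN genes encode type I interferons, and CDKN2B encodes the related kinase inhibitor p15INK4b. The long arm begins with a large block of heterochromatin, and the stretches that border it are rich in segmental duplications.

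The list had no peak within 3.16 Mb of CDKN2A. The 250 bases before each annotated start of the gene are shown as background. Whether the cells used here still hold these bases was not measured. They are RefSeq sequences on GRCh38.p14, on the minus strand, read 5′ to 3′ along the gene. Their positions belong to that build and are not those of the peak list. The first lies at chr9:21974858-21975107 before the p16INK4a start, and the second lies at chr9:21995325-21995574 before the p14ARF start.

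CDKN2A, p16INK4a start: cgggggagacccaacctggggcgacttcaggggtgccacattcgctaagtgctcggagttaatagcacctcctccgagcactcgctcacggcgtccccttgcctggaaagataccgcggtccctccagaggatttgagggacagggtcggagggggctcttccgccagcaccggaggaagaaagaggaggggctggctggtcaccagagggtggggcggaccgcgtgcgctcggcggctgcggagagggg
CDKN2A, p14ARF start: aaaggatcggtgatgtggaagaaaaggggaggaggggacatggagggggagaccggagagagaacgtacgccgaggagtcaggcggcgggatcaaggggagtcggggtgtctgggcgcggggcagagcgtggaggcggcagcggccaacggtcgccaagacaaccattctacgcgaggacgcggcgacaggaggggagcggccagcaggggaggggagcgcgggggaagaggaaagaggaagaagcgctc

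Both stretches hold 66.8% G and C. The brachyury half-site TCACACCT was searched on both strands in the RefSeq windows of 300 bases around gene starts. It was in neither CDKN2A window, so no letters are in capitals, and in no window of the 10 neighbouring genes. It was in 18 of 1584 windows on chromosome 9 (1.14%, Wilson 95% interval 0.720 to 1.79) and in 344 of 35116 windows in all (0.980%). At such shares, absence from a given window is the usual outcome and says nothing about binding. Sequence under the peaks themselves was not analysed here.

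Over its whole span, empty stretches included, chromosome 9 was sparser in peaks than the remaining chromosomes pooled. That span holds an empty interval of 18.4 Mb across the centromere. Whether reads could be placed there was not examined, so the density may count length that cannot hold a peak. Between its first and its last peak chromosome 9 carried 2.75 peaks per Mb (exact Poisson 95% interval 2.48 to 3.03), against 3.58 per Mb (3.51 to 3.65) elsewhere. It ranked 15 of 24 chromosomes by density, so that 9 chromosomes were sparser. The ratio was 0.768 (95% interval 0.692 to 0.850, two-sided exact conditional binomial test, adjusted p = 4.2e-07 over the 3 tests made). The call was lost when intervals of over 1 Mb were left out of every span, a step that by its nature shortens sparse spans most. The ratio was then 0.937 (0.844 to 1.04, exact test, adjusted p = 0.22). These tests cover counting error only and treat neighbouring peaks as independent. They do not allow for the choice of chromosome 9 and its limits, which was made with earlier results of these data known.

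**Figure D1:**
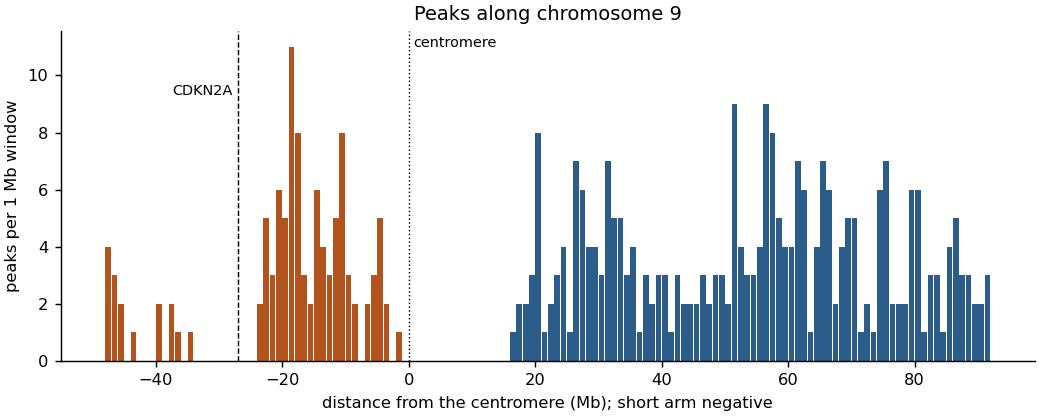
Number of peaks in each whole 1 Mb window of chromosome 9 (vertical axis) against the distance of the window from the centromere in Mb (horizontal axis), with short arm windows in brown and long arm windows in blue. Dotted and dashed lines mark the centromere and CDKN2A. The incomplete windows at both ends are left out, the CDKN2A stretch and the block after the centromere are empty, and no window of the long arm beyond that block is empty.

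The arms were split at 49.0 Mb. The short arm held 110 peaks, the first from 144362 to 145180 with a score of 68.00 and the last from 47211774 to 47212709 with a score of 52.23. The long arm held 277 peaks, the first from 65593379 to 65594229 with a score of 60.22 and the last from 141068845 to 141069746 with a score of 69.63. The score is -10 x log10 of the p-value that the peak caller gave, and the list begins at 50. Measured from the first to the last peak of each arm, the density was 2.34 per Mb (1.92 to 2.82) in the short arm and 3.67 per Mb (3.25 to 4.13) in the long arm. The short arm therefore had 0.637 times the density of the long arm (0.506 to 0.797, exact conditional binomial test, adjusted p = 4.3e-05).

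The difference between the arms was not spread over the short arm. Its first 25.0 Mb, up to the end of the empty interval around CDKN2A, held 21 peaks at 0.840 per Mb (0.520 to 1.28). Up to the start of that interval, the same 21 peaks lay in 14.5 Mb, at 1.45 per Mb (0.895 to 2.21). The remaining 22.1 Mb held 89 peaks at 4.04 per Mb (3.24 to 4.97), an interval that overlaps that of the long arm. Neither this part nor the long arm was below the 3.58 per Mb of the other chromosomes. The spans are not alike, however. Those of the other chromosomes include the empty stretches around their centromeres, while both parts here leave out the centromeric block and the CDKN2A interval. This division was chosen after the positions had been seen and was not tested. Leaving intervals of over 1 Mb out of both arms turned the direction, with a ratio of 1.19 (0.947 to 1.49, exact test, adjusted p = 0.13). In a quasi-Poisson fit over 5 Mb windows, which allows for clustering, the ratio of 0.636 had an interval of 0.373 to 1.08 and was not called. Among peaks at or above the median score of the list it was 0.769 (0.555 to 1.06, exact test, adjusted p = 0.097).

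The 20 windows of 1 Mb from 10 to 30 Mb were then counted around CDKN2A, which was placed at 21.968 to 21.995 Mb. On the telomeric side, 2 peaks lay in the window from 11 to 12 Mb and 1 each in those from 12 to 13 and from 14 to 15 Mb. The other 8 of the 11 telomeric windows were empty, as was the window of the gene itself. On the centromeric side the 3 windows from 22 to 25 Mb were empty. The counts then were 2 peaks from 25 to 26 Mb, 5 from 26 to 27 Mb, 3 from 27 to 28 Mb, 6 from 28 to 29 Mb and 5 from 29 to 30 Mb. In all, 12 of the 20 windows held no peak, against 11.9% of the 2898 whole windows of the list. The share was 25.0% on chromosome 9 and 39.1% in its short arm. Of the empty windows here, 10 stood in a row from 15 to 25 Mb, inside 1 interval, so they are not separate observations.

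The density was 0.334 per Mb (0.0911 to 0.856, 4 peaks) from 10 Mb to the gene and 2.62 per Mb (1.62 to 4.01, 21 peaks) from the gene to 30 Mb. The telomeric flank had 0.127 times the density of the centromeric flank (0.0318 to 0.378, exact conditional binomial test, adjusted p = 1.7e-05). With each flank counted from its nearest peak, so that the empty interval was in neither, the ratio was 0.198 (0.0494 to 0.586, exact test, adjusted p = 9.6e-04). Both exact tests treat neighbouring peaks as independent, so their intervals and p-values are too narrow and too small if peaks cluster. In a quasi-Poisson fit over 1 Mb windows, which allows for clustering, the ratio of 0.139 had a wider interval of 0.0319 to 0.602. The region and its limits were chosen with earlier results of these data known, and neither p-value allows for that choice.

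**Figure D2:**
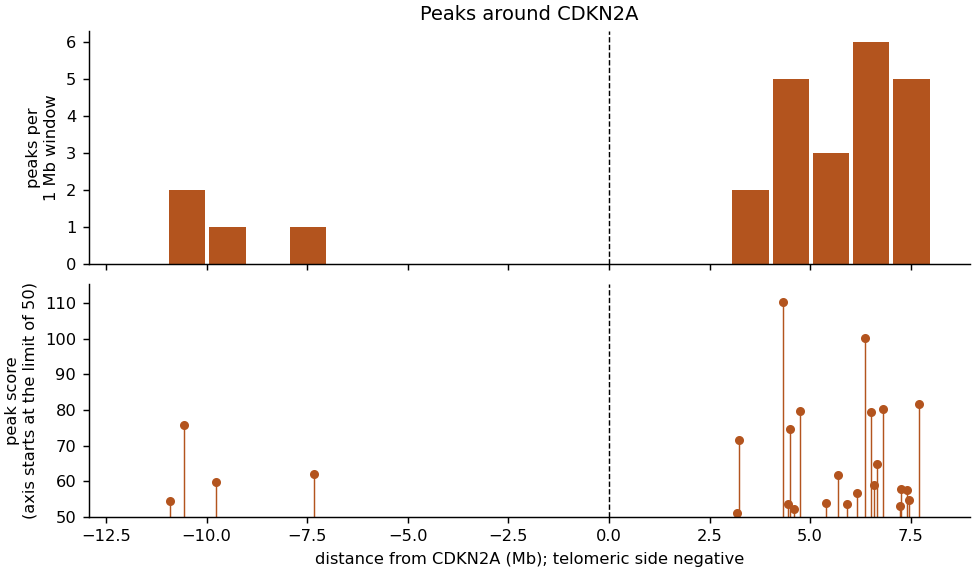
Peaks from 10 to 30 Mb by their distance from CDKN2A in Mb (horizontal axis, telomeric side negative). The upper panel gives peaks per 1 Mb window and the lower panel the score of each peak above the limit of 50. The 4 telomeric peaks stand apart from the 21 centromeric peaks, and 110.41 is the highest score.

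CDKN2A lay inside an interval of 10.5 Mb without a peak, from 14662127 to 25158724. The gene was not in its middle. The nearest telomeric peak, from 14661484 to 14662126, was 7.31 Mb away, 643 bp wide and had a score of 62.13. The next one, from 12224026 to 12224974, was 9.74 Mb away with a score of 59.72. On the centromeric side, the nearest peak was 3.16 Mb away, from 25158725 to 25159713, and its score of 51.01 was close to the limit. A second one followed from 25210606 to 25211376 with a score of 71.47. After it came an empty interval of 1.10 Mb and then the highest peak of the flanks, from 26314809 to 26316392, with a score of 110.41 and a width of 1584 bp. The list holds peaks only, so the reads of either library inside the interval, and the number of DNA copies there, were not measured. The part of a deletion in the empty interval was not tested.

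The scores of the 25 flank peaks ran from 51.01 to 110.41 with a median of 59.7 (95% interval 54.6 to 74.5), against 58.8 (58.5 to 59.0) on the other chromosomes. A score of 100 or more was found in 2 of them (8.00%, Wilson 95% interval 2.22 to 25.0), against 2.87% (2.56 to 3.22) on the other chromosomes. They were the one named above and one from 28355609 to 28357132 with 100.27. Both were also the only ones of at least 1500 bp. The 4 telomeric peaks scored 54.47, 75.88, 59.72 and 62.13.

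Intervals without a peak were next compared along the chromosome. Of the 386 intervals between peaks of chromosome 9, 18 were at least 1 Mb long (4.66%), against 3.68% of the 10318 intervals of the list. That share was near that of the list, but 2 of the 5 intervals of at least 10 Mb in the list were on chromosome 9. One spanned 18.4 Mb from 47212710 to 65593378, across the centromere. The other was the CDKN2A interval, which ranked 5 in the list. Longer ones lay on chromosome 1 (21.8 Mb), X (12.7 Mb) and 16 (11.4 Mb). Whether reads could be placed throughout these intervals was not examined, so the rank may set unlike stretches side by side.

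The arms had their long intervals in different sizes. In the short arm 8 intervals reached 1 Mb, 5 of them reached 2 Mb, and together the 8 took up 53.7% of the 47.1 Mb of the arm. In the long arm 9 intervals reached 1 Mb and none reached 2 Mb. The longest of these, from 130120428 to 131400761, measured 1.28 Mb, and the 9 took up 13.3% of 75.5 Mb. After the CDKN2A interval, the longest of the short arm measured 3.30 Mb from 5924911 to 9229696, 2.51 Mb from 3413490 to 5923944, 2.46 Mb from 40421743 to 42885878 and 2.44 Mb from 12224975 to 14661483. All but that from 40421743 onward lay telomeric of CDKN2A. Typical spacing differed little, with a median interval of 181 kb in the short arm (quartiles 65.2 and 370 kb), 178 kb in the long arm (65.9 and 388 kb) and 158 kb on the other chromosomes (65.1 and 339 kb).

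**Figure D3:**
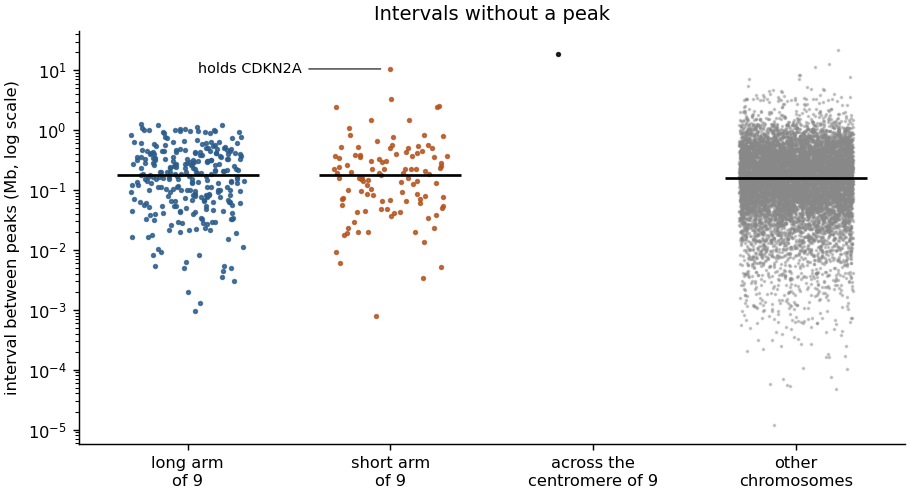
Length of every interval between neighbouring peaks in Mb on a log scale (vertical axis), as points spread sideways for legibility, for the long and short arm of chromosome 9, the interval across its centromere and all other chromosomes. Black lines are medians, which lie at 178 kb, 181 kb and 158 kb, and the CDKN2A interval of 10.5 Mb stands above all others of the short arm.

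Counted in windows, 35 of 140 whole windows of 1 Mb on chromosome 9 held no peak (25.0%, Wilson 95% interval 18.6 to 32.8), against 11.2% (10.1 to 12.5) on the other chromosomes. Of these, 17 stood in a row from 48 to 65 Mb across the centromeric block, and 10 stood in a row from 15 to 25 Mb. Whether reads could be placed in the 17 was not examined. The Wilson intervals treat windows as separate observations, which those in a row are not. In the short arm 18 of 46 windows were empty (39.1%, 26.4 to 53.5). In the long arm beyond the block none of 75 was empty, which allows a share of up to 4.0%.

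The spread of peaks over windows was also measured. The windows of the long arm held 3.65 ± 2.05 peaks (SD over windows, n = 75) with a variance to mean ratio of 1.15, where independent placement at 1 rate gives 1. Those of the short arm held 2.26 ± 2.61 peaks (SD over windows, n = 46) with a ratio of 3.02. From 26 Mb onward, without the sparse telomeric part, the short arm had a ratio of 1.78 (21 windows, mean of 4.10 peaks). On the other chromosomes the ratio over all windows was 1.88, which includes differences between chromosomes. No test was made of these ratios.

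The fullest windows were found on both arms. The window from 30 to 31 Mb on the short arm held 11 peaks, the most on the chromosome, and lay 8.00 Mb from CDKN2A. It was followed by those from 100 to 101 Mb and from 105 to 106 Mb on the long arm with 9 peaks each. In windows of 5 Mb, 30 peaks were counted both from 30 to 35 Mb and from 105 to 110 Mb, and 25 from 110 to 115 Mb.

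The 5 highest scores of chromosome 9 all belonged to the long arm. They were 140.14 at 100690537 to 100691465, 123.51 at 98514260 to 98515514, 121.90 at 109332965 to 109334085, 119.71 at 113415567 to 113416075 and 118.71 at 89790506 to 89791422. The fourth was only 509 bp wide, while the others measured 917 to 1255 bp. Genes at these peaks were not analysed here. The share of peaks that scored at least 100 was nevertheless 8.18% in the short arm (9 peaks, Wilson 95% interval 4.36 to 14.8) and 2.53% in the long arm (7 peaks, 1.23 to 5.12). These intervals overlap. On the other chromosomes it was 2.87% (2.56 to 3.22), below the interval of the short arm and inside that of the long arm, and no test was made. The median score was 58.9 (56.4 to 64.4) in the short arm, 58.2 (57.0 to 59.4) in the long arm and 58.8 (58.5 to 59.0) on the other chromosomes, and these intervals overlap too.

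Median widths were equally close, with 968 bp (884 to 1008) in the short arm, 959 bp (936 to 975) in the long arm and 960 bp (955 to 963) elsewhere. The widest peaks lay on either side of the empty block across the centromere. The 3 widest peaks of the chromosome measured 2874 bp (45353844 to 45356717, score 103.50), 2320 bp (69347658 to 69349977, score 91.62) and 2289 bp (69949563 to 69951851, score 57.11). Chromosome 9 held 5 peaks of at least 2000 bp among 387, and the other chromosomes held 134 among 9955, a similar share. All 5 on chromosome 9 lay between 40 and 71 Mb, among 32 peaks in that stretch, which holds the empty block. Of the 5, 1 was on the short arm side, and 4 were on the long arm side, 18.9 to 21.0 Mb past the centromere. There 7 of 32 peaks were at least 1500 bp wide (21.9%, Wilson 95% interval 11.0 to 38.8), against 11 of 355 on the rest of chromosome 9 (3.10%, 1.74 to 5.46) and 5.25% (4.83 to 5.71) on the other chromosomes. No peak of the stretch was narrower than 700 bp, which allows a share of up to 9.38%, while 8.17% were on the rest of chromosome 9. Scores in the stretch had a median of 60.1 (55.4 to 64.8). The limits of 40 and 71 Mb were chosen after the widths had been seen, and no test was made.

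Wide peaks were also counted on both sides of the CDKN2A interval. Of the 11 peaks of at least 1500 bp in the short arm, none was among the 21 telomeric of the interval, and all 11 were among the 89 centromeric of it (12.4%, 7.04 to 20.8). The long arm had 7 in 277 (2.53%, 1.23 to 5.12). With 21 peaks, a count of 0 allows a share of up to 14.3%, and the difference within the short arm was not tested.

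**Figure D4:**
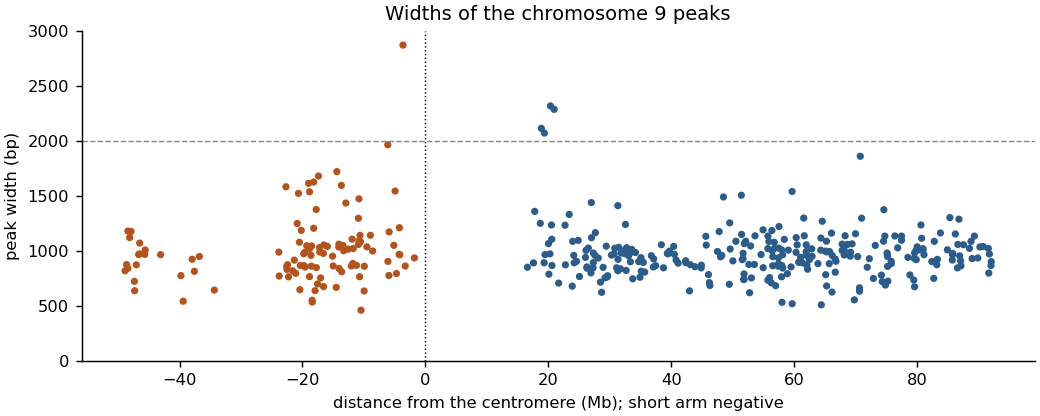
Width of each chromosome 9 peak in bp (vertical axis) against its distance from the centromere in Mb (horizontal axis), with short arm peaks in brown and long arm peaks in blue. The dashed line marks 2000 bp, and the 5 peaks above it all lie between 40 and 71 Mb, on either side of the empty block around the centromere.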

How the data were processed

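ChIP-seq of wild-type MDA-MB-231 cells was deposited as 1 peak list, made from 1 immunoprecipitated and 1 input library. The authors called peaks with MACS (named in the peak names). The p-value limit of 1e-05 and the model fold limits of 10 and 30 were read from the name of the list. The deposited score of a peak was read as -10 x log10 of its p-value, since the lowest score was 50. Per the labels, the submitters' processing notes name Bowtie2 2.1.0 and hg19. The MACS version and the handling of duplicates are not given in the sources used here. The design text of the series describes another experiment and was not used.

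Chromosome 9, the CDKN2A region and all limits were chosen with earlier results of these data known. Starts were raised by 1, and a peak was placed by its midpoint. An interval ran from the end of one peak to the start of the next. Densities carry exact Poisson intervals at 95%, ratios an exact conditional binomial test with Benjamini-Hochberg adjustment over 3 tests (threshold 0.05), shares Wilson intervals and medians order-statistic intervals. The limit for a count of 0 is 3 counts. As alternatives, only peaks from the median score upward (the upper part) were kept, close peaks (under 1 kb) were merged, other spans and windows were used, and quasi-Poisson fits were made over all windows of the list. Named peaks were the 5 highest scores, the 3 widest, the 2 nearest to CDKN2A on each side, arm ends, the 5 longest intervals and the 3 fullest windows; peaks of the flanks beyond these were named after their values were seen. Without a genome of the build of the list, the annotation of peaks and their motifs were not run. Python 3.11.15, numpy 2.4.6, scipy 1.17.1, pandas 2.3.3 and statsmodels 0.14.6 were used, and the functions were tested on simulated data.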

Additional observations from a re-analysis of the deposited data

How the results depend on the processing

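The density of chromosome 9 relative to the other chromosomes kept its direction and its call in the upper part of the list, with merged peaks and in both quasi-Poisson fits (ratios 0.736 to 0.769), and lost the call without intervals of over 1 Mb (ratio 0.937). The short arm relative to the long arm kept its call with merged peaks, with arms run to the centromere and over 1 Mb windows (0.619 to 0.748). It lost the call in the upper part (0.769) and over 5 Mb windows (0.636), and turned without intervals of over 1 Mb (1.19). The telomeric relative to the centromeric flank of CDKN2A kept its call in all 4 alternatives run (0.127 to 0.198). The 5 Mb windows and the removal of intervals of over 1 Mb, which changed the arm result, were not run for the flanks. The flank result is therefore not shown to be the steadier of them. The CDKN2A interval measured 10.5 Mb in the upper part as well, where its centromeric border moved by 1 peak. There, 35 intervals reached 1 Mb in place of 18 and 37.9% of 1 Mb windows were empty in place of 25.0%, both by construction, as fewer peaks were left. Windows of 0.5 Mb were empty in 38.4%, as smaller windows hold fewer peaks. The median score and width of chromosome 9 moved within their intervals. No paired analysis was possible because the list was called once from 1 library of each kind. The depth of both libraries is unknown, which limits each peak.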
